A study of Mus musculus with 6 samples.

Results

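The major urinary protein (Mup) genes described here were Mup1, Mup2, Mup3, Mup7, Mup11, Mup17, Mup20 and Mup21. They were taken by gene symbol from the liver count table and make up 8 of the 54532 Ensembl genes in it. All 8 had enough counts to be tested. RNA was sequenced from the livers of male C57BL/6J mice, with 1 library per mouse and 3 mice in each of 2 groups. Both groups received a high-fat diet (HFD) for 4 weeks and then for another 4 weeks. The HFD+allantoin group also received allantoin, the product of uric acid oxidation in mice, at 0.3 mg/mL in its drinking water during the last 4 weeks. The sources give the age at entry either as 8 weeks or as 4 weeks. Every mouse carried the HFD, so that no value below compares HFD with chow. The HFD libraries are numbered replicates 1 to 3 and the HFD+allantoin libraries replicates 4 to 6.

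Major urinary proteins are small secreted lipocalins, barrel-shaped proteins that hold hydrophobic molecules in a central pocket. The liver makes most of them, and they pass from the blood through the kidney into urine, where they carry volatile pheromones and serve as scent marks. Their genes and pseudogenes lie in one cluster on mouse chromosome 4, and the livers of males express them far more than those of females. Pulsatile growth hormone acting through JAK2 and STAT5, together with glucocorticoid and thyroid hormone, is known to maintain this expression. Mup20 encodes darcin, the male pheromone protein that attracts females.

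Sequence set the limit on what a read count of a single Mup gene means. All 8 genes lie on the minus strand of chromosome 4 in the GRCm38 build, from Mup7 at chr4:60066469-60070475 to Mup21 at chr4:62147932-62150863. GENCODE M21 lists 49 genes with a Mup symbol, of which 22 are coding and 27 are pseudogenes. The coding sequences of 16 of the 22, including Mup1, Mup2, Mup7, Mup11 and Mup17, were 98.2% to 99.8% identical to each other. Mup20, Mup3 and Mup21 stood apart from these, and Mup20 was 90.1% and Mup3 82.3% identical to Mup7. Mup3 and Mup21 were 94.7% identical to each other. The same 75-base stretch of each coding sequence is shown to make this visible, with capitals at the bases that differ from Mup7.
Mup7: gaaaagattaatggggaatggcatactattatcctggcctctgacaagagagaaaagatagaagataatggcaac
Mup1: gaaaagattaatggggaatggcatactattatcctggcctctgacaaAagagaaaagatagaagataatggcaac
Mup2: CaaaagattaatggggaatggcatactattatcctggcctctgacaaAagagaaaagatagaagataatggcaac
Mup11: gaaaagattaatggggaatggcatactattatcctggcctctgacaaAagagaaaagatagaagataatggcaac
Mup17: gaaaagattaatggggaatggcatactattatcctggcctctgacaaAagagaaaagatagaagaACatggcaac
Mup20: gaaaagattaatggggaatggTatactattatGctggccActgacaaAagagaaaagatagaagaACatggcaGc
Mup3: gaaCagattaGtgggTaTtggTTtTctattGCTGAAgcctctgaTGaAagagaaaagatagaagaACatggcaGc
Mup21: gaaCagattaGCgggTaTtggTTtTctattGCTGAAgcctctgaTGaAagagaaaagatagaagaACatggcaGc
In this stretch Mup1 and Mup11 differed from Mup7 at 1 base, Mup2 at 2, Mup17 at 3, Mup20 at 7, Mup3 at 19 and Mup21 at 20. Over whole transcripts, 97.3% of the 100-base windows of Mup2 occurred unchanged in another gene. This share was 87.2% for Mup1, 87.1% for Mup7, 83.5% for Mup11, 59.4% for Mup17 and 38.8% for Mup20. It was 2.94% for Mup3 and 4.50% for Mup21. In shorter windows of 50 bases the share was 15.6% for Mup3, 19.3% for Mup21 and 50.5% for Mup20. Reads of Mup3 and Mup21 could therefore mostly be told from those of other genes, though less so the shorter the reads. The split of reads among the 5 near-identical genes depended on a counting rule that is not given in the sources used here. Values of Mup1, Mup2, Mup7, Mup11 and Mup17 are uncertain as single genes, and sums over the family are given beside them.

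The family as a whole was lower in the HFD+allantoin livers. The 8 genes held 4.37%, 5.17% and 3.20% of all counts in HFD replicates 1, 2 and 3. They held 3.38%, 3.09% and 1.29% in HFD+allantoin replicates 4, 5 and 6. The means were 4.25% ± 0.987 and 2.58% ± 1.13 (SD, n = 3 each), and the groups overlapped, because replicate 4 lay above HFD replicate 3. On the TMM scale, which adjusts each library for a shift shared by most genes, the sum was 57980, 57660 and 33760 CPM (read counts scaled to a common library size) in the HFD libraries. It was 28330, 26600 and 11560 CPM in the HFD+allantoin libraries. On this scale the groups did not overlap, and the mean was 2.25-fold lower with allantoin (49800 ± 13900 against 22160 ± 9225 CPM, SD, n = 3 each, no test over the members). Without replicate 6, the library with the lowest sum, the log2 ratio of means was -0.86 in place of -1.17.

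**Figure D1:**
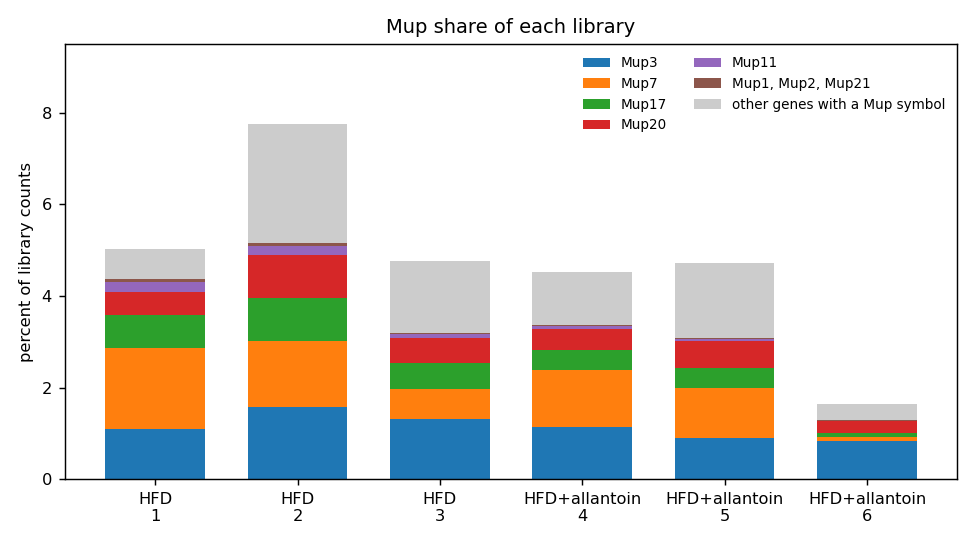
Percent of each library's counts (y axis, from 0) assigned to genes with a Mup symbol, as stacked bars for the 6 liver libraries (x axis). Mup3 and Mup7 made up most of the share of the 8 genes, and replicate 6 of the HFD+allantoin group had the smallest total, 1.64%.

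Summing over all 49 Mup symbols, which removes the choice of the 8, gave 5.03%, 7.76% and 4.76% of counts in the HFD libraries. The corresponding shares with allantoin were 4.53%, 4.73% and 1.64%. The log2 ratio of the CPM means was -1.12. The sum over the 16 near-identical coding genes had a log2 ratio of -1.22, and that over Mup3, Mup20 and Mup21 one of -0.95.

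Of the 8 genes, 4 fell in the edgeR quasi-likelihood test at a Benjamini-Hochberg adjusted p under 0.05, namely Mup1, Mup3, Mup11 and Mup21, and none rose. Among all 12795 genes tested, 13.0% were called lower and 11.3% higher. The fitted log2 fold change was below 0 in 7 of the 8, with a median of -1.41 against -0.03 over all tested genes. In 5 of the 8 the 3 HFD values all lay above the 3 HFD+allantoin values, against 21.9% of all tested genes. Scaling by library size alone left 2 of the 8 called lower and 1 called higher, and turned the 1666 lower and 1446 higher calls over all genes into 674 and 3162. Fewer liver cells expressing a gene and less of its RNA per cell cannot be told apart in these whole-tissue libraries.

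**Figure D2:**
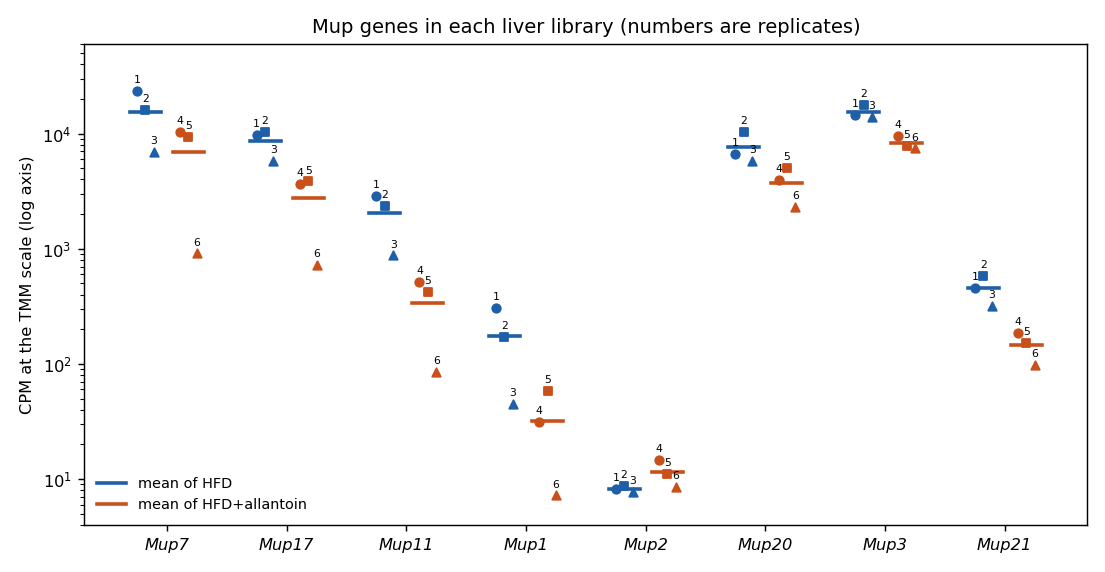
CPM at the TMM scale (y axis, log axis) of the 8 Mup genes in each library, with HFD in blue, HFD+allantoin in orange, numbers for replicates and bars for group means. The groups are separated for Mup17, Mup11, Mup20, Mup3 and Mup21, and replicate 6 lies far below replicates 4 and 5 for Mup7, Mup17, Mup11 and Mup1.

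Mup3 and Mup21, whose reads are the least shared among the 8 genes, both fell. Mup3, an abundant liver Mup gene, had 14610, 17750 and 13910 CPM in the HFD libraries and 9606, 7815 and 7434 CPM with allantoin. The groups did not overlap, and each group was tight (15420 ± 2047 and 8285 ± 1160 CPM, SD, n = 3 each). Its log2 fold change was -0.90 ± 0.22 (SE, edgeR adjusted p = 0.0195). This call was lost without replicate 5 (edgeR adjusted p = 0.0866) and without replicate 6 (edgeR adjusted p = 0.0564), with log2 fold changes of -0.85 and -0.82. It was also lost with scaling by library size alone, where the log2 fold change was -0.48 (edgeR adjusted p = 0.199), and after removal of trends with transcript length and GC content, where it was -0.69 (edgeR adjusted p = 0.0571).

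Mup21, the nearest relative of Mup3, was expressed far below it. It had 456, 583 and 321 CPM in the HFD libraries and 185, 151 and 98.1 CPM with allantoin. The lowest HFD value lay above the highest HFD+allantoin value, and the means were 453 ± 131 and 145 ± 43.8 CPM (SD, n = 3 each). The log2 fold change of Mup21 was -1.65 ± 0.29 (SE, edgeR adjusted p = 0.00605). Mup21 was called lower under each of the 16 alternatives tried. Per kilobase of transcript, Mup3 stood at 15670 ± 2080 CPM and Mup21 at 670 ± 194 CPM in the HFD group (SD, n = 3 each).

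The start regions of these 2 genes are shown because both fell and their transcript windows are the least shared among the 8 genes. RefSeq gives them as chr4:62087268-62087567 for Mup3 and chr4:62150792-62151091 for Mup21, both on the minus strand of GRCm38.p6, from 250 bases before the start site to 50 after it. They were 90.2% identical over an alignment of the whole windows, which do not begin and end at the same base. Capitals mark the 24 bases of each that have no match in the other window. The opening run of capitals in Mup21 and the closing run in Mup3 lie past the end of the other window. These runs do not show a difference between the genes.
Mup3: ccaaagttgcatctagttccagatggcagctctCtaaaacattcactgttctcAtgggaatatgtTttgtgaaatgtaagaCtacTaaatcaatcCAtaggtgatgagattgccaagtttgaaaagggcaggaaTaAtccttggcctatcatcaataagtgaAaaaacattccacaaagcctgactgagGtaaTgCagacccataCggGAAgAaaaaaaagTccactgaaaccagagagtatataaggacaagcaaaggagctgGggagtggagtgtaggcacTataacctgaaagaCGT
Mup21: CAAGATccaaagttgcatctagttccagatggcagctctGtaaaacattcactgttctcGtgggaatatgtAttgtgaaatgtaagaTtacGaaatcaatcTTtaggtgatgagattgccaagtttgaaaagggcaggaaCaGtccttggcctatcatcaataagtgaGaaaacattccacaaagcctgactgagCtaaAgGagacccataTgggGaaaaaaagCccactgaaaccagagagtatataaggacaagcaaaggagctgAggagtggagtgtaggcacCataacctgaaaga
The letters TTCNNNGAA, bound by STAT5, were searched on both strands. They occurred in none of the 14 Mup windows of the table, 6 of them from the 8 genes, and in 8.30% of the 32851 windows of all genes. Some Mup windows are near copies of each other (Mup2 and Mup17 were 96.1% identical), so the 14 are not separate cases. Sequence outside the windows was not searched, and no conclusion on STAT5 sites of the family is drawn. The table held no window for Mup1 and Mup20.

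Mup20, which encodes darcin, moved in the same direction but narrowly missed the threshold. It had 6652, 10410 and 5792 CPM in the HFD libraries and 3932, 5002 and 2295 CPM with allantoin. No HFD+allantoin value reached the HFD range, and the means were 7618 ± 2455 and 3743 ± 1363 CPM (SD, n = 3 each). The log2 fold change was -1.03 ± 0.33 (SE, edgeR adjusted p = 0.0514). It passed the threshold with DESeq2 (adjusted p = 0.00641), with limma-voom (adjusted p = 0.0382), with mitochondrial genes left out (edgeR adjusted p = 0.0465) and without HFD replicate 3 (edgeR adjusted p = 0.0302). It lay further from the threshold without HFD replicate 2 (-0.73, edgeR adjusted p = 0.139), without replicate 4 (edgeR adjusted p = 0.128) and without replicate 6 (-0.77, edgeR adjusted p = 0.127). The same held with scaling by library size alone (-0.60, edgeR adjusted p = 0.226) and after removal of length and GC trends (-0.78, edgeR adjusted p = 0.154). With 38.8% of its 100-base windows shared, some of its reads could belong to other Mup genes.

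The near-identical genes Mup11 and Mup17 were both lower in every HFD+allantoin library than in any HFD library. The sum of the 5 near-identical genes among the 8 did overlap between the groups. That sum was 36270, 28910 and 13730 CPM with HFD and 14610, 13640 and 1731 CPM with allantoin. Its log2 ratio of means was -1.40, and -0.90 without replicate 6. The sum over all 16 near-identical coding genes did not overlap. Mup11 had 2887, 2349 and 874 CPM in the HFD libraries and 516, 421 and 85.2 CPM with allantoin. Its log2 fold change was -2.58 ± 0.64 (SE, edgeR adjusted p = 0.0209), the furthest below 0 of the 8. The call was lost without HFD replicate 1 (log2 fold change -2.25, edgeR adjusted p = 0.0582) and without replicate 5 (-2.76, edgeR adjusted p = 0.0692). Mup17 had 9760, 10320 and 5813 CPM with HFD and 3664, 3846 and 718 CPM with allantoin. Replicate 6 was far below the other values of Mup17, and the log2 fold change of -1.65 ± 0.54 (SE, edgeR adjusted p = 0.0541) did not pass the threshold. Mup17 did pass without HFD replicate 3 (-1.87, edgeR adjusted p = 0.0336), without replicate 6 (-1.20, edgeR adjusted p = 0.0385), with DESeq2 (adjusted p = 0.00262) and with limma-voom (adjusted p = 0.0380). It lay further from the threshold without HFD replicate 1 or 2 (edgeR adjusted p = 0.114 and 0.109) and without replicate 4 or 5 (edgeR adjusted p = 0.0945 and 0.0897). So it did with scaling by library size alone (-1.20, edgeR adjusted p = 0.115) and after removal of length and GC trends (-1.45, edgeR adjusted p = 0.106).

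Mup7 had the largest SD of the 8 genes in both groups. It had 23310, 16070 and 6990 CPM in the HFD libraries and 10380, 9301 and 911 CPM with allantoin. Replicates 4 and 5 lay above HFD replicate 3, so the groups overlapped, and the means were 15460 ± 8176 and 6864 ± 5183 CPM (SD, n = 3 each). The log2 fold change of -1.17 ± 0.75 (SE, edgeR adjusted p = 0.277) did not pass the threshold. Replicate 6 was 17.0-fold under the HFD mean for Mup7, against 1.57-fold for the mean of replicates 4 and 5. Without replicate 6 the log2 ratio of the Mup7 means was -0.65.

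Mup1, one of the near-identical genes, had a low count that varied widely. It had 306, 170 and 45.2 CPM in the HFD libraries and 31.3, 58.1 and 7.22 CPM with allantoin, so that the groups overlapped at HFD replicate 3 and HFD+allantoin replicate 5. Its log2 fold change of -2.43 ± 0.78 (SE, edgeR adjusted p = 0.0499) lay at the threshold itself. Without one library at a time, the call remained only without HFD replicate 3. Leaving out HFD replicate 1 or 2 gave edgeR adjusted p = 0.153 and 0.0786, and leaving out replicate 4, 5 or 6 gave edgeR adjusted p = 0.139, 0.0625 and 0.106. The call was also lost with DESeq2 (adjusted p = 0.0550), limma-voom (adjusted p = 0.0522), RLE size factors (edgeR adjusted p = 0.0506), scaling by library size alone (edgeR adjusted p = 0.0674) and removal of length and GC trends (edgeR adjusted p = 0.0874). In all it was lost under 10 of 16 alternatives. The log2 fold change ranged from -3.17 without replicate 5 to -1.75 without HFD replicate 1.

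Mup2 was assigned few counts in both groups. It had 8.19, 8.69 and 7.69 CPM in the HFD libraries and 14.7, 11.0 and 8.57 CPM with allantoin. Replicate 6 lay below HFD replicate 2, and the log2 fold change was 0.48 ± 0.24 (SE, edgeR adjusted p = 0.179). Mup2 was the only one of the 8 fitted above 0, and it was called higher with scaling by library size alone (0.90, edgeR adjusted p = 0.0298). Since 97.3% of its windows recur in other genes, its few counts could also come from them. Reads of its own could likewise have been assigned to those genes, so its level of expression is not known.

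**Figure D3:**
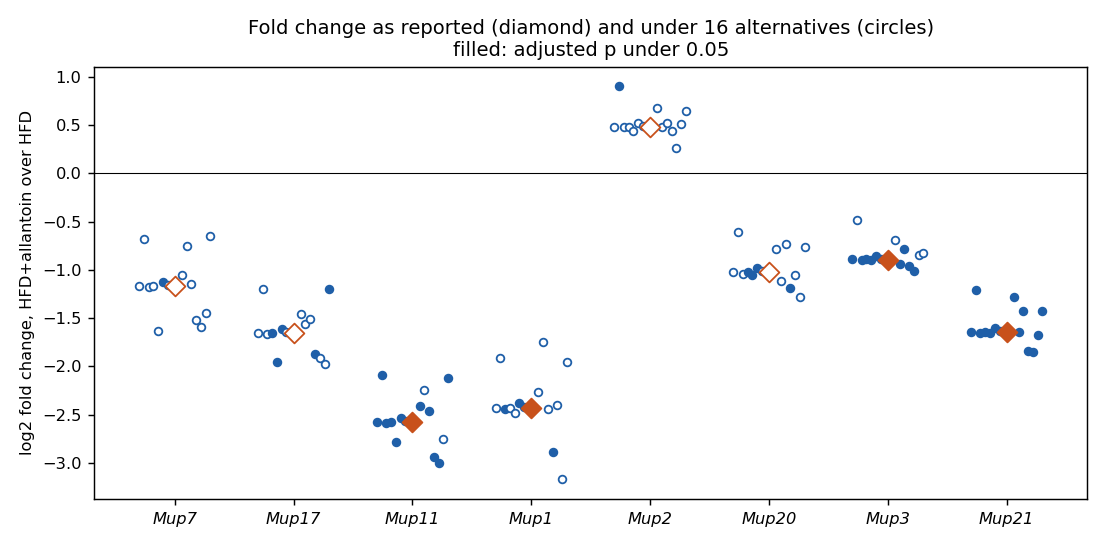
Log2 fold change of HFD+allantoin over HFD (y axis) for each Mup gene as reported (diamond) and under 16 alternatives (circles), filled where the adjusted p was under 0.05. All values of Mup2 lie above 0 and those of the other 7 genes below 0, and only Mup21 is filled throughout.

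The members also differed in their parts of the sum of the 8 genes. Per kilobase, Mup7 (16670 ± 8820 CPM) and Mup3 (15670 ± 2080 CPM) came first in the HFD group, followed by Mup17 (9310 ± 2649 CPM), Mup20 (8209 ± 2646 CPM) and Mup11 (2190 ± 1121 CPM, all SD, n = 3). Mup21, Mup1 and Mup2 followed in that order. The values of Mup7 and Mup3 overlapped, as did those of Mup17 and Mup20, so these neighbours did not differ beyond their spread. With allantoin the order per kilobase was Mup3 (8419 ± 1179 CPM), Mup7 (7405 ± 5591 CPM), Mup20 (4033 ± 1469 CPM) and Mup17 (2959 ± 1894 CPM, all SD, n = 3). Per kilobase, Mup7 lay above Mup3 in replicate 4 (11200 against 9762 CPM) and replicate 5 (10030 against 7942 CPM). The place of Mup3 before Mup7 therefore rested on replicate 6. Mup3 made up 25.2%, 30.8% and 41.2% of the counts of the 8 genes with HFD and 33.9%, 29.4% and 64.3% with allantoin. The high value belonged to replicate 6, in which Mup7 was 7.89% of the 8-gene counts, against 20.7% to 40.2% in the other 5 libraries. The 8 genes held 86.9%, 66.6% and 67.2% of the counts of all Mup symbols with HFD and 74.5%, 65.3% and 78.4% with allantoin. Parts of the whole family are therefore smaller than these.

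The ratio of Mup7 to Mup3 CPM was 1.60, 0.905 and 0.503 in the HFD libraries and 1.08, 1.19 and 0.123 with allantoin. Replicate 6 lay below the other 5 libraries, which overlapped between the groups. The ratio of Mup20 to Mup3 ranged from 0.309 to 0.640 over all 6 libraries. The sum of the 5 near-identical genes in replicate 6 was 15.2-fold under the HFD mean, and that of Mup3, Mup20 and Mup21 was 2.39-fold under it. Summed over all 16 near-identical coding genes, replicate 6 was 9.08-fold under the HFD mean. Pseudogenes that share windows with these genes are not in that sum.

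Across the 6 libraries the log2 CPM of Mup3 and Mup21 moved closely together (Pearson r = 0.980), as did that of Mup11 and Mup17 (r = 0.979). The correlations of Mup2 with the other 7 genes lay between -0.46 and 0.12. These libraries share the group difference, and near-identical genes share reads, so the values are descriptions.

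Of the 14 other coding Mup genes, 13 were tested, 10 were fitted below 0 and 3 were called lower, and none was called higher. Of all tested genes, 13.0% were called lower. Mup13 and Mup14, near-identical genes, had log2 fold changes of -3.27 ± 0.92 (SE, edgeR adjusted p = 0.0320) and -2.31 ± 0.68 (SE, edgeR adjusted p = 0.0379). Mup9, another of them, had -2.11 ± 0.65 (SE, edgeR adjusted p = 0.0448). Each of the 3 calls was lost without replicate 4, with edgeR adjusted p = 0.111 for Mup13, 0.126 for Mup14 and 0.0998 for Mup9. Each was also lost without HFD replicate 2, with edgeR adjusted p = 0.0658, 0.109 and 0.0805 in the same order. In that fit Mup14 had a log2 fold change of -1.42, while Mup13 and Mup9 had -2.90 and -2.04. Without replicate 5, Mup13 had -4.38 and Mup14 -3.19. Mup13 and Mup9 lost the call without HFD replicate 1 (0.0789 and 0.0879), Mup13 and Mup14 without replicate 6 (0.0819 and 0.103), and Mup9 without replicate 5 (0.0702, all edgeR adjusted p). After removal of length and GC trends all 3 calls were lost (edgeR adjusted p = 0.0527 for Mup13, 0.0672 for Mup14 and 0.0843 for Mup9). Mup14 and Mup9 also lost the call with DESeq2 (adjusted p = 0.0516 and 0.0560) and with scaling by library size alone (edgeR adjusted p = 0.0562 and 0.0738).

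Of the 27 Mup pseudogenes 11 were tested and 4 were called lower, Mup-ps12, Mup-ps13, Mup-ps16 and Mup-ps19, beside 13.0% of all tested genes. Mup-ps13 had the smallest adjusted p, with a log2 fold change of -1.09 ± 0.21 (SE, edgeR adjusted p = 0.00862), and kept its call without each single library. Mup-ps19 lost it without replicate 5 (edgeR adjusted p = 0.0681). Mup-ps12 lost it without each library other than HFD replicate 3 (edgeR adjusted p from 0.0556 to 0.112). Mup-ps16 lost it without HFD replicate 1, replicate 4 or replicate 6 (edgeR adjusted p = 0.0622, 0.0945 and 0.0918). All 4 calls, that of Mup-ps13 included, were lost after removal of length and GC trends. The edgeR adjusted p was then 0.136 for Mup-ps13, 0.0767 for Mup-ps19, 0.0997 for Mup-ps16 and 0.312 for Mup-ps12. With scaling by library size alone the call of Mup-ps12 was lost too (edgeR adjusted p = 0.124).

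**Figure D4:**
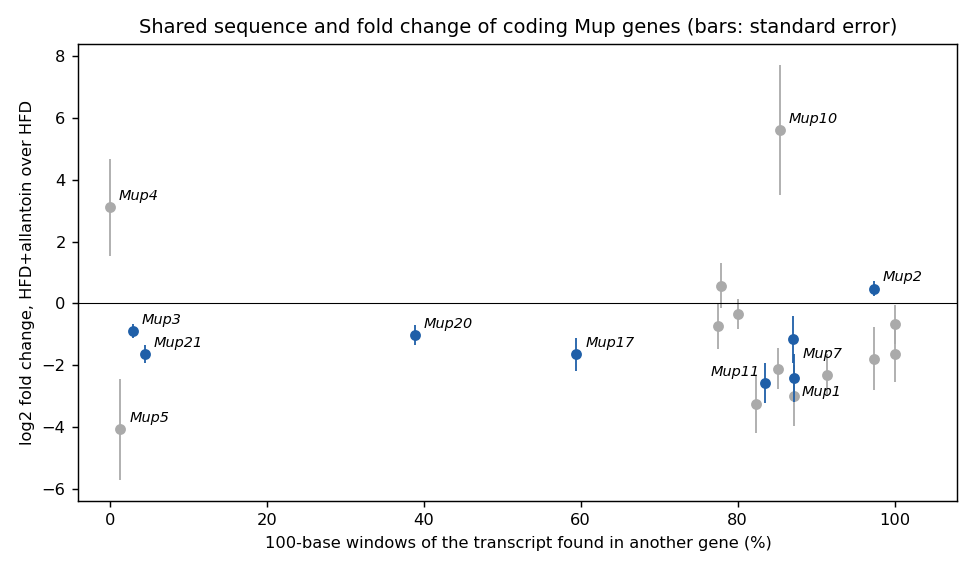
Log2 fold change of HFD+allantoin over HFD with its standard error (y axis) against the percent of 100-base transcript windows found in another gene (x axis) for the tested coding Mup genes, with the 8 described genes in blue and the others in grey. Mup3 at 2.94% and Mup21 at 4.50% fell with narrow errors, while Mup10, at 5.61, has a wide one. Mup4 (0.0% shared, SE 1.56) and Mup5 (1.33% shared, SE 1.64) also have wide errors.

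Genes of growth hormone signalling and hepatic transcription factors did not move in a common direction. Their list holds targets of growth hormone, such as Igf1, Socs2 and Cish, beside regulators. Of 30 genes for growth hormone signalling, STAT5 and hepatic transcription factors, 28 were tested, 3 fell and 6 rose, with a median log2 fold change of 0.06. The 3 that fell were 10.7% of the list, near the 13.0% of all tested genes, and the 6 that rose were 21.4%, against 11.3%. Ghr, the growth hormone receptor, had a log2 fold change of 0.29 ± 0.18 (SE, edgeR adjusted p = 0.261). Those of Stat5a and Stat5b were -0.16 and -0.14 and that of the liver transcription factor Hnf4a was -0.11, and none of these 3 passed the threshold. Jak2, the kinase bound to the growth hormone receptor, rose by 0.62 ± 0.18 (SE, edgeR adjusted p = 0.0350), but the call was lost without any 1 of 5 libraries, the exception being HFD replicate 1 (edgeR adjusted p from 0.0503 to 0.134).

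Of the target genes of growth hormone signalling named above, Igf1 was called lower, and Socs2 and Cish were not called. Igf1, the circulating growth factor whose liver expression depends on growth hormone and STAT5, had 936, 856 and 831 CPM in the HFD libraries and 491, 473 and 441 CPM with allantoin. The groups did not overlap, and Igf1 fell by 0.90 ± 0.16 on the log2 scale (SE, edgeR adjusted p = 0.00605). With scaling by library size alone the log2 fold change of Igf1 was -0.48 and the call was lost (edgeR adjusted p = 0.101). Socs2 and Cish, feedback inhibitors that growth hormone pulses induce rapidly, spread widely among the HFD mice. Cish had 0, 2.67 and 59.1 CPM in the HFD libraries and 11.1, 25.0 and 28.4 CPM with allantoin. Socs2 had 20.3, 4.44 and 43.7 CPM with HFD and 11.1, 10.5 and 12.2 CPM with allantoin. Neither passed the threshold (log2 fold changes of 0.05 and -1.02, edgeR adjusted p = 0.982 and 0.239). Both rested on single HFD mice, since without HFD replicate 3 Cish had 3.96 (edgeR adjusted p = 0.00772) and Socs2 -0.12, and without HFD replicate 2 Socs2 had -1.51 (edgeR adjusted p = 0.0133). Bcl6, a repressor that competes with STAT5 at liver genes, had a log2 fold change of -1.73 ± 0.62 (SE, edgeR adjusted p = 0.0703) and 93.0 CPM in HFD replicate 1 against 7.48 to 25.3 CPM elsewhere. Without HFD replicate 1 its log2 fold change was -0.59, and it passed the threshold without HFD replicate 2 or 3 (edgeR adjusted p = 0.0248 and 0.0366). Cux2, a female-specific repressor, was not tested.

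Other transcription factors were called in both directions. Zhx2, a homeobox repressor known as a regulator of liver genes, had 3.06, 2.47 and 3.09 CPM in the HFD libraries and 12.9, 10.9 and 11.0 CPM with allantoin, and rose by 2.01 ± 0.24 on the log2 scale (SE, edgeR adjusted p = 0.00284). Rxra, a partner of many nuclear receptors, rose by 0.92 ± 0.17 (SE, edgeR adjusted p = 0.00787), and Nr3c1, the glucocorticoid receptor, by 0.60 ± 0.16 (SE, edgeR adjusted p = 0.0258). Cebpb fell by 1.30 ± 0.17 (SE, edgeR adjusted p = 0.00340) and Nfia by 0.86 ± 0.19 (SE, edgeR adjusted p = 0.0140). The call of Nr3c1 was lost without HFD replicate 2 or any 1 HFD+allantoin library (edgeR adjusted p from 0.0673 to 0.115), and that of Nfia without replicate 4 or 5 (edgeR adjusted p = 0.0716 and 0.0766). After removal of length and GC trends, the calls of Nr3c1 and Jak2 were lost too (edgeR adjusted p = 0.105 and 0.132). The 6 higher calls of this list became 3 without HFD replicate 2 and 2 without replicate 4, 5 or 6. The 3 lower calls became 5 without HFD replicate 2 or 3, 2 without replicate 4 or 5, and 1 with scaling by library size alone, where Nfia had -0.42 (edgeR adjusted p = 0.112).

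Some other male-biased liver genes were lower as well. Of 20 such genes 19 were tested, 8 were called lower and none higher, and 11 were not called. Of the 19, 15 were fitted below 0, and the median log2 fold change was -0.81. The share called lower was 42.1%, against 13.0% of all tested genes and 40.0% of the abundant secreted proteins described below. Elovl3, a fatty acid elongase, fell by 1.86 ± 0.47 (SE, edgeR adjusted p = 0.0217), and Gstp1, a glutathione transferase, by 1.80 ± 0.34 (SE, edgeR adjusted p = 0.00843). Cyp2u1 fell by 1.61 ± 0.24 (SE, edgeR adjusted p = 0.00403), and Egfr, the epidermal growth factor receptor, by 1.20 ± 0.24 (SE, edgeR adjusted p = 0.0101). Elovl3 lost its call without replicate 5 (edgeR adjusted p = 0.0938) or replicate 6 (edgeR adjusted p = 0.0856), and its log2 fold change was -1.15 without HFD replicate 2. Egfr lost its call with scaling by library size alone (edgeR adjusted p = 0.0523). The 8 lower calls became 5 without HFD replicate 1, HFD replicate 2 or replicate 4, and 3 without replicate 5, without replicate 6 or with scaling by library size alone.

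Of 26 female-biased liver genes only 11 passed the low-count filter, and genes raised in either group pass it more easily. The direction of their counts is therefore partly set by the filter, and it is given as a description. Of the 11, 4 were called higher and none lower, beside 11.3% and 13.0% of all tested genes. Acot3, an acyl-CoA thioesterase, rose by 2.87 ± 0.60 (SE, edgeR adjusted p = 0.0110), and Abcd2, a peroxisomal fatty acid transporter, by 1.72 ± 0.34 (SE, edgeR adjusted p = 0.00938). Without HFD replicate 3, Acot3 had a log2 fold change of 4.16. Fmo2 rose by 1.43 ± 0.37 (SE, edgeR adjusted p = 0.0248), and Slc22a27 by 3.06 ± 0.97 (SE, edgeR adjusted p = 0.0480). Slc22a27 had 15.4 CPM in replicate 6 and at most 1.69 CPM elsewhere. Its call was lost without HFD replicate 1, 2 or 3 and without replicate 6, where the log2 fold change was 1.10 (edgeR adjusted p = 0.251). Fmo2 lost its call without HFD replicate 1 and without replicate 4, 5 or 6 (edgeR adjusted p from 0.0536 to 0.107). The 4 calls became 2 without HFD replicate 1 or replicate 6.

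Some of the other proteins that hepatocytes secrete were lower as well. Of 30 abundant ones 12 were called lower and 1 higher, against 13.0% and 11.3% of all tested genes, and 17 were not called. The median log2 fold change was -0.58. The apolipoproteins Apoc1 and Apoc3 both fell by 1.58, with standard errors of 0.20 and 0.18 (edgeR adjusted p = 0.00292 and 0.00242). Trf, which encodes transferrin, fell by 1.33 ± 0.20 (SE, edgeR adjusted p = 0.00437), and Serpina1c, one of a set of similar serpin genes between which reads may be split, by 1.13 ± 0.18 (SE, edgeR adjusted p = 0.00455). Apob, the structural protein of very-low-density lipoprotein, rose by 0.92 ± 0.28 (SE, edgeR adjusted p = 0.0417), a call that held only without HFD replicate 3 (edgeR adjusted p from 0.0724 to 0.134 without each of the others). The 12 lower calls became 6 without replicate 4, without replicate 5 or with scaling by library size alone. Alb, which encodes albumin, had a log2 fold change of 0.13 ± 0.26 (SE, edgeR adjusted p = 0.742).

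Of 13 other lipocalins 8 were tested, 2 fell and 1 rose, counts too small to set against the 13.0% and 11.3% of all tested genes. The median log2 fold change was -0.65. Ambp, which encodes alpha-1-microglobulin and was also among the secreted proteins, fell by 0.64 ± 0.17 (SE, edgeR adjusted p = 0.0277), and C8g, a complement subunit, by 0.65 ± 0.19 (SE, edgeR adjusted p = 0.0368). Both calls were lost without HFD replicate 2 and without any 1 HFD+allantoin library (edgeR adjusted p from 0.0543 to 0.142), with scaling by library size alone and after removal of length and GC trends. Without replicate 6, 3 other lipocalins were called lower in their place. Apom, the lipocalin that carries sphingosine-1-phosphate in lipoproteins, rose by 1.62 ± 0.20 (SE, edgeR adjusted p = 0.00292) and kept its call without each single library.

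**Figure D5:**
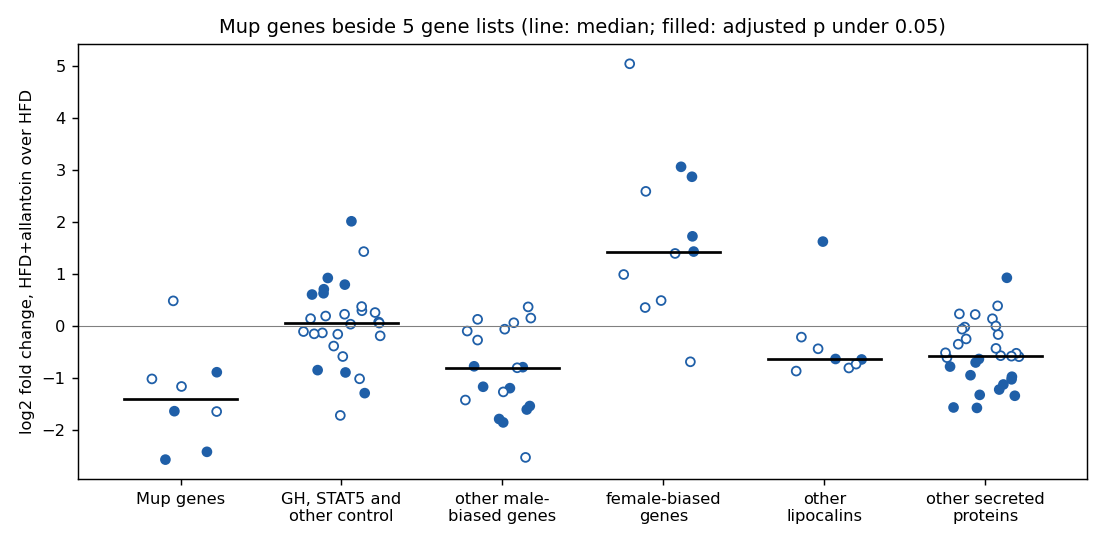
Log2 fold change of HFD+allantoin over HFD (y axis) for each tested gene of the Mup genes and 5 other lists (x axis), with lines at the medians and filled points at an adjusted p under 0.05. The medians are -1.41 for the Mup genes, -0.81 for other male-biased genes, -0.65 for other lipocalins and -0.58 for other secreted proteins. Only 11 of 26 female-biased genes passed the low-count filter, so their points do not stand for that list.

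The gene outside the family whose log2 CPM followed the sum of the 8 Mup genes most closely over the 6 libraries was Selenbp2, with Pearson r = 0.996. Selenbp2, a selenium-binding protein gene that is itself male-biased, had 507, 437 and 198 CPM in the HFD libraries and 188, 153 and 49.7 CPM with allantoin. Its log2 fold change was -1.55 ± 0.48 (SE, edgeR adjusted p = 0.0465), a call lost without any 1 library other than HFD replicate 3 (edgeR adjusted p from 0.0643 to 0.126). Spc24 (r = 0.990), Tspan33 (r = 0.989), Elp6 (r = 0.989) and Slc22a7 (r = 0.988) followed. Of 12763 genes outside the family 81 had r above 0.95, and all points share the group difference and library depth.

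The libraries held 11304059 to 14562848 counts of Ensembl genes. Genes of the mitochondrial chromosome took 36.5%, 20.2% and 17.9% of counts with HFD and 7.52%, 6.92% and 11.4% with allantoin. With those genes left out, the log2 ratio of the family sum was -1.17, as with them. Hepatocyte markers were present throughout, and their summed level was 73610 to 84510 CPM with HFD and 77890 to 107800 CPM with allantoin (1 of 10 lower, 2 higher). Alb alone held 55940, 60490 and 62020 CPM of this sum with HFD and 54400, 59200 and 82140 CPM with allantoin. The sum therefore mostly followed Alb and does not show the level of the other markers. Macrophage markers summed to 110 to 262 CPM with HFD and 305 to 343 CPM with allantoin (3 of 8 higher), and stellate cell markers to 192 to 315 and 420 to 483 CPM (5 of 8 higher). No marker of sinusoidal endothelium (8 tested), red blood cells (5) or pancreatic acinar cells (1) was called. Of 3 tested cholangiocyte markers 1 was called lower, as was 1 of 2 tested adipocyte markers. Of all tested genes, 13.0% were called lower and 11.3% higher. The part of these cell types in the Mup results was not tested. Of the 4 markers of salivary and lacrimal gland, other sites of Mup expression, Bpifa2 and Smr3a were at 0 in all 6 libraries. The other members, Mup4 and Mup5, were tested and not called, and the list summed to 12.9, 43.2 and 0.669 CPM with HFD and 11.7, 107 and 1.96 CPM with allantoin. The high sums of HFD replicate 2 and replicate 5 came from Mup5 and Mup4.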

How the data were processed

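Liver RNA was sequenced on an Illumina HiSeq and the reads were filtered by the sequencing provider. The deposited values are raw read counts per gene, which the authors made without pooling. The submitters' processing notes name GRCm38 and mm10, and the aligner, counter, strand setting and rule for reads with several matches are not given in the sources used here. Of 54961 entries, 429 had no Ensembl identifier and were left out (0.197% to 0.306% of counts). Symbols and positions came from GENCODE M21, in which 54495 identifiers were found.

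Counts were tested with edgeR 4.0.16 in R 4.3.3 (TMM, filterByExpr, quasi-likelihood test, group as the only term, Benjamini-Hochberg adjustment over all 12795 tested genes, called at an adjusted p under 0.05). A prior count of 2 was added for log-CPM. DESeq2 1.42.0, limma 3.58.1, other scalings and filters, and leaving out each library were alternatives. The scripts were tested on simulated data. Windows of transcripts were compared with those of all other annotated genes, and coding sequences were aligned with Biopython 1.88. The Mup genes and the other lists were chosen with earlier results of these data known. All 8 Mup genes are named with their values. Of each other list, the called genes with the 4 smallest p in each direction are named, with a fixed set of growth hormone genes (1 of the set is not reported here) and the 5 genes most like the family sum. Alb was named after its values were seen. One library was made per mouse, so that the spread is between mice.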

Additional observations from a re-analysis of the deposited data

How the results depend on the processing

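The log2 ratio of the family sum kept its direction under all 15 alternatives, from -1.40 to -0.72. The 4 Mup genes called lower became 2 with scaling by library size alone, 7 without the low-count filter and 2 after removal of trends with transcript length and GC content. Leaving out 1 library gave 1 to 6, with 1 without HFD+allantoin replicate 5, 2 without HFD replicate 1 and 6 without HFD replicate 3. The number called higher, 0, became 1 with scaling by library size alone. Over all genes, 1666 lower and 1446 higher calls became 674 and 3162 with that scaling, which moved the median log2 fold change of all genes to 0.38. Leaving out 1 library gave 564 to 2008 lower and 460 to 1773 higher calls, with 700 and 596 without replicate 4, 564 and 460 without replicate 5, and 832 and 702 without replicate 6. Without the low-count filter edgeR's prior degrees of freedom became infinite, in place of 5.03, so that a gene's own spread no longer entered its test. Of 23 called genes named from the other lists, 14 kept their call without each single library.

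Genes with small changes turned direction under some alternatives. With library size alone, Hnf4a had 0.33, Stat5b 0.28 and Stat5a 0.30. Stat5a had 0.019 with limma-voom. After removal of length and GC trends, Cish had -0.11. Leaving out 1 library gave -0.28 to 0.063 for Hnf4a, -0.49 to 0.19 for Stat5a and -0.53 to 3.96 for Cish. It gave -1.74 to 6.19 for Mup10, with the lowest value without replicate 4. Apart from the changes that follow from fewer samples, the cause was not tested. No paired analysis was possible because the groups share no replicate numbers.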

Other observations

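The counts of several other Mup genes varied widely between libraries of the same group. Mup10, a near-identical coding gene, had 22795 counts in HFD+allantoin replicate 4 and 31 to 176 counts in each of the other 5 libraries. Its log2 fold change of 5.61 ± 2.11 (SE, edgeR adjusted p = 0.0823) therefore rested on 1 mouse, and it was -1.74 without that library. Mup19, another such gene, had 9214 counts in HFD replicate 3 and 3385 in replicate 6, against 516 to 928 in the other libraries. Mup12 had 17237, 115466 and 112930 counts in the HFD libraries and 59035, 137481 and 15708 with allantoin, and Mup15 had 14511, 91780 and 22255 against 25162, 28487 and 979. The groups overlapped for all 4.

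Mup4 and Mup5, which are best known from nasal and salivary or lacrimal glands and of whose 100-base windows few or none occur in other genes, were also uneven. Mup4 had 1807 counts in replicate 5, 0 in replicate 6 and 8 to 154 in the other 4 libraries. Mup5 had 417 counts in HFD replicate 2 and 0 to 29 elsewhere. Neither passed the threshold (edgeR adjusted p = 0.175 and 0.0988).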
